A study of Mus musculus with 3 samples.

Results

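The interferon response genes described here are a list of 35 mouse genes for the receptors, RNA sensors, transcription factors and antiviral effectors of the interferon system. They were followed in NIH3T3 cells, an immortalised line of mouse embryonic fibroblasts, to see whether cells with a hairpin vector read higher for this system than cells with the vector alone. A probe set, the group of short probes on an array that reports 1 transcript, was taken when the platform annotation gave it exactly 1 gene symbol and that symbol was on the list. By this rule 33 of the 35 genes had 61 probe sets, out of 18193 genes in all. Isg15 and Ifi44 had none and were not analysed here. The series holds 3 single-colour arrays of total RNA. They are 2 arrays of cells with an empty vector (empty vector 1 and empty vector 2) and 1 array of cells with an shRNA (short hairpin RNA) whose target is retinol saturase, called RetSat shRNA here and bearing the number 2 in its title. The labels describe the empty-vector cells as untreated, grown in DMEM with calf serum, and as a source of basal expression. RetSat shRNA cells are labelled as highly resistant to t-BHP (tert-butyl hydroperoxide, an organic peroxide), and no medium or treatment is given for them. No array is of cells with a hairpin against another target or with no vector. A difference that goes with the hairpin, with loss of Retsat or with the labelled resistance therefore cannot be told apart here. The kind of vector, its promoter, and whether a line came from 1 clone or many cells were not given in the sources used here. Separate cultures are not stated for the empty-vector pair, so a p-value rests on a spread that may be technical.

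Interferons are secreted proteins that cells release on sensing a virus. Double-stranded RNA in the cytosol is bound by the helicases RIG-I (Ddx58) and MDA5 (Ifih1), which activate the factors IRF3 and IRF7 and so the type I interferon genes. The secreted interferon binds a receptor of IFNAR1 and IFNAR2, and a complex of STAT proteins with IRF9 then switches on many interferon-stimulated genes through a DNA element called the interferon-stimulated response element (ISRE). Fibroblasts are a classical source of interferon beta, and some hairpin vectors have been found to set off this system in cultured cells, with 2',5'-oligoadenylate synthetase transcripts as a common readout.

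The promoter element is shown first, because it is the DNA element through which many of these genes are known to be switched on. Members with and without a match to it are also set apart further on. Promoter windows of 300 bases (250 before to 50 after a transcript start, RefSeq, build GRCm38.p6) were at hand for 28 of the 35 genes. They were searched on both strands for the ISRE core, read here as GAAA, any 2 bases and GAAA again. Of those 28 genes, 13 (46.4%) held a match, compared with 3.99% of the 27025 genes in the promoter table. Counted by window, 13 of 34 (38.2%) held it, compared with 3.44% of 32851. The element bound by STAT dimers after interferon gamma, read as TTC, any 3 bases and GAA, was in windows of 10 of the 28 genes (35.7%), compared with 9.55% of all genes. A match is a run of letters and not a shown binding site, and matches of the ISRE core can overlap one another. A window with no match does not show that the gene lacks the element, since only these letters within 300 bases were searched.

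The 8 genes that held an ISRE core match and were also bright enough to be tested are printed below as 30 bases around the first match, 5' to 3' on the gene's own strand, with the core in capitals. GAAA pairs appear as TTTC pairs where the core lies on the opposite strand.
Ifit1: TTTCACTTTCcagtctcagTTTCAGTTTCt
Ifit3: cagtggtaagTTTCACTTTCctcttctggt
Gbp2: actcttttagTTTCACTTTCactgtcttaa
Igtp: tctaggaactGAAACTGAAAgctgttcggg
Bst2: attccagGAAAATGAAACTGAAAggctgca
Stat2: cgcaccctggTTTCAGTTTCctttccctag
Ddx58: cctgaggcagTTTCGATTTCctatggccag
Eif2ak2: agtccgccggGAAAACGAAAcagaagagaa
The stretches lie at chr19:34640785-34640814 for Ifit1, chr19:34583363-34583392 for Ifit3, chr3:142620594-142620623 for Gbp2 and chr11:58199512-58199541 for Igtp, all on the plus strand. Stat2 is also on the plus strand, at chr10:128270266-128270295. On the minus strand are Bst2 at chr8:71537580-71537609, Ddx58 at chr4:40239804-40239833 and Eif2ak2 at chr17:78882535-78882564. Ifit1 held 2 separate matches, starting 104 and 85 bases before the transcript start, Ifit3 also held 2, starting 156 and 122 bases before it (the second lies outside the printed stretch), and Bst2 held 2 that overlap. The matches of Ddx58 and Eif2ak2 start at base 3 and base 19 of the transcript, and those of the other 6 genes lie before the start.

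One empty-vector array stood apart from the other 2 arrays, which bears on every value below. Across the 10843 genes bright enough to be tested, the SD of the log2 difference was 0.336 between RetSat shRNA and empty vector 2, 0.739 between the empty-vector arrays and 0.754 between RetSat shRNA and empty vector 1. Differences are therefore given against each empty-vector array, and sets of 3 signals are in the order empty vector 1, empty vector 2, RetSat shRNA. The target gene Retsat, which checks the label, read 416 and 496 on the empty-vector arrays and 69.5 on RetSat shRNA, or 15.2% of the empty-vector mean. Even this difference of -2.54 log2 had an adjusted p of 1 in limma (unadjusted p 0.000432), so a count of 0 from that test does not bound the size of differences. The 10 fibroblast markers were all bright on each array, at 811 units or more. They summed to 98200 on empty vector 1, 99264 on empty vector 2 and 100912 on RetSat shRNA. Single markers differed more than the sums. Pdgfrb (1287, 2548 and 2455) and Col3a1 (811, 1358 and 1094) were lowest on empty vector 1, and Thy1 (1923, 1347 and 1763) was highest there. Markers of other cell types were mostly below the filter used for testing. The 10 macrophage and dendritic cell markers measured summed to 874, 796 and 945, with Cd14 (569, 480 and 615), Cd68 (142, 133 and 119.7) and Csf1r (83.3, 106 and 86.6) above the filter, while the leukocyte marker Ptprc read 4.4, 5.1 and 15.2 and Itgam 0.9, 1.2 and 1.3. Epithelial markers (6 measured) summed to 331, 289.9 and 305, with 4 above the filter, Epcam (53.8, 122 and 107), Krt8 (102, 16.2 and 78.1), Krt5 (50.2, 61.7 and 56.9) and Krt14 (90.7, 39.8 and 53.9). Their part in the results below was not tested. Endothelial markers (5 measured, 0 above the filter) summed to 73.0, 73.0 and 96.5. In such bulk RNA, fewer cells of a type and less RNA per cell cannot be told apart.

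No interferon response gene passed a test between RetSat shRNA and empty vector, and the counts of members above or below both control arrays gave no excess on the higher side. Of the 33 genes measured, 21 passed the filter on dim genes (a mean log2 signal at the median of all probe sets, about 33.3 signal units) and 12 did not. None of the 21 passed limma's moderated test of RetSat shRNA against empty vector at an adjusted p of 0.05, where 0% of all tested genes passed. At an unadjusted p under 0.05 there were also 0 of 21, compared with 0.996% of all tested genes. By a rule of size, 0 of 21 were at least 2-fold higher than both empty-vector arrays and 0 at least 2-fold lower, compared with 0.0922% and 0.498% of all tested genes. Those above both arrays by any amount numbered 6 (28.6%, against 34.4% of all tested genes), and those below both numbered 5 (23.8%, against 25.4%). Against empty vector 2 alone, 1 of the 21 (Oasl1) was at least 2-fold higher and 0 lower (0.719% and 1.01% of all tested genes). Against empty vector 1 alone, 0 were at least 2-fold higher and 3 lower (3.45% and 10.2%). Oasl1, also among the 6 above both arrays, passed the filter only through its signal on RetSat shRNA. Its place in these counts therefore lends them no weight. Over all 33 measured genes, dim ones included, 8 lay above both arrays (24.2%, against 33.6% of all genes with a probe set) and 12 below (36.4%, against 28.9%).

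The median log2 difference of the 21 genes from the mean of the empty-vector arrays was -0.02, against 0.07 over all tested genes. It was -0.26 against empty vector 1 (0.14 over all tested genes) and 0.09 against empty vector 2 (0.00 over all). The sign of the median thus depended on which control array was used, and it also turned to 0.07 with arrays centred on their medians and to 0.03 after quantile normalization, where the median of all genes was 0.16 and 0.10. All differences are on the log2(signal + 10.2) scale, which understates those of dim genes. Limma had 1 residual degree of freedom for each gene, which comes from the pair of controls. It takes the single RetSat shRNA array to be as variable as that pair. Its moderated test also draws on a variance pooled over all tested genes, with 9.51 prior degrees of freedom. Each standard error therefore rests mostly on that pooled value. Standard errors of the 21 differences ran from 0.50 to 0.79, so the test could not resolve small differences in either direction.

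**Figure D1:**
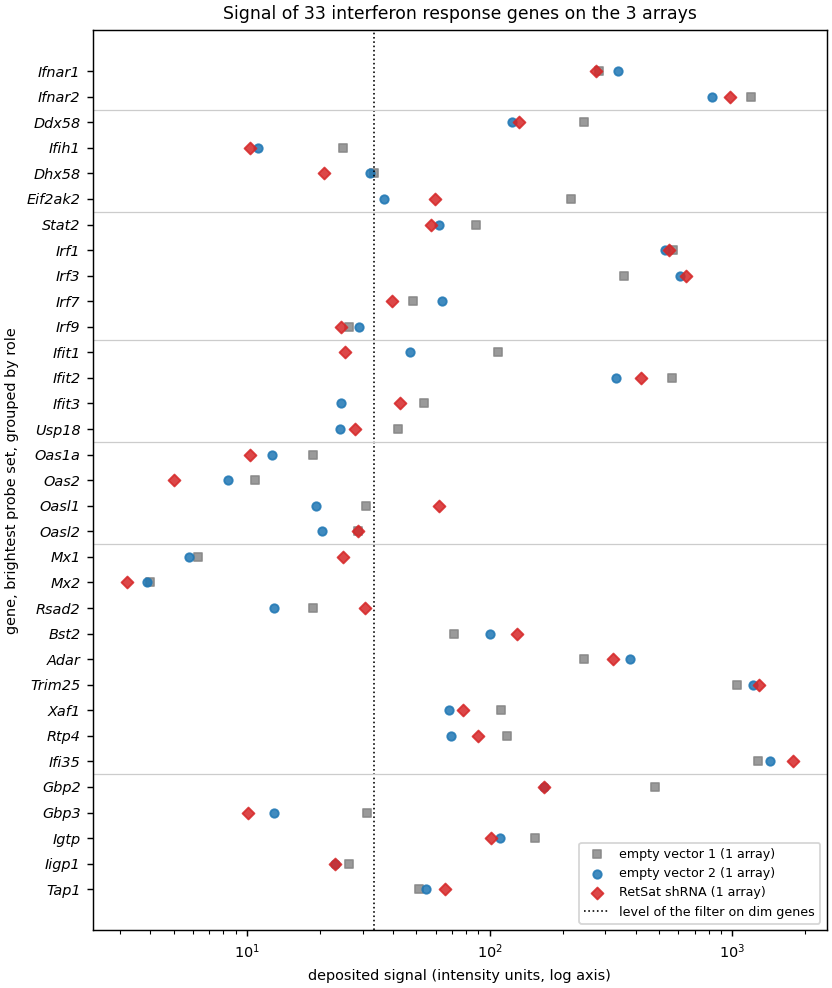
Deposited signal (log axis, intensity units) of the brightest probe set of each of 33 interferon response genes on the 3 arrays, 1 point per array, grouped by role from receptors at the top to GTPases and antigen processing at the bottom. The dotted line is the level of the filter on dim genes. RetSat shRNA and empty vector 2 lie close together for most genes, and empty vector 1 (grey squares) lies to the right of both for 21 of the 33.

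The receptor genes were well above the filter and close to level. Ifnar1, the chain that starts signalling when interferon is bound, read 284 and 338 on the empty-vector arrays and 273 on RetSat shRNA. Ifnar2, the high-affinity binding chain, read 1194, 826 and 977, so RetSat shRNA lay between the control arrays. The log2 differences against empty vector 2 were -0.30 and 0.24. Neither gene had an ISRE core match in its window, and their other probe sets differed from empty vector 2 by at most 0.14 in size.

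Among the RNA sensors, empty vector 1 was the highest array for the brightest probe set of all 4 genes, compared with 32.6% of all genes with a probe set. Ddx58 (RIG-I), the sensor of short double-stranded and uncapped RNA ends, read 245 and 124 on the empty-vector arrays and 132 on RetSat shRNA. Ifih1 (MDA5), which binds long double-stranded RNA, was dim at 25, 11.1 and 10.3. Dhx58 (LGP2), a regulator of both sensors, was also dim, at 33.4, 32.2 and 20.9. RetSat shRNA was thus not higher than both control arrays on the brightest probe set of any of these 3 helicases.

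Eif2ak2 encodes PKR, the kinase that halts translation when it binds double-stranded RNA. Its probe sets went opposite ways. The brightest read 216 on empty vector 1, 36.6 on empty vector 2 and 59.5 on RetSat shRNA. Another read 185, 48.0 and 13.6, and the last one 131, 34.6 and 5.6. On these dimmer probe sets RetSat shRNA was lower than both control arrays, with log2 differences of -3.03 and -3.16 from empty vector 1 and -1.29 and -1.50 from empty vector 2. On the brightest these were -1.70 and 0.57. These are 2 of the 37 probe sets of members above the filter (5.41%), where 0.932% of all probe sets above the filter were at least 2-fold lower than both arrays. At least 2-fold higher were 0 of the 37, against 0.149%. Both dimmer probe sets of Eif2ak2 passed the filter only through their signal on empty vector 1, so the share of lower probe sets carries no weight. Their pick came after the values were seen, and the direction for this gene stays tied to the probe set. On every one of the 3, empty vector 1 was the highest array, by 2.27 log2 over empty vector 2 on the brightest.

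Apart from Irf7, the transcription factors had log2 differences from empty vector 2 between -0.18 (Irf9) and 0.09 (Irf3) on their brightest probe sets. Irf1, an early factor downstream of interferon gamma, read 571 and 528 on the empty-vector arrays and 549 on RetSat shRNA. Stat2, the STAT used by type I interferon, read 87.8, 61.8 and 57.6. Irf7, the factor that amplifies interferon alpha production and is itself interferon-inducible, read 48.5, 63.6 and 39.6, the lowest on RetSat shRNA, with a log2 difference of -0.57 from empty vector 2. Irf9, the DNA-binding part of the STAT complex, was dim and level at 26.5, 29.0 and 24.5. Irf3, the constitutive factor that answers the RNA sensors, read 358, 606 and 645 on its brightest probe set, where empty vector 1 was the low array. Its next probe set read 165, 174 and 136, the lowest on RetSat shRNA, so the probe sets disagreed for Irf3 too.

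IFIT proteins bind foreign RNA ends and are among the most strongly induced products of interferon. Ifit1 read 109 on empty vector 1, 47.2 on empty vector 2 and 25.4 on RetSat shRNA. RetSat shRNA lay below both empty-vector arrays for 25.4% of all tested genes and above both for 34.4%. Ifit1 was among those below both, at 32.6% of the empty-vector mean. Its log2 difference from the mean was -1.21 (SE 0.57, 95% interval -2.48 to 0.05), with an adjusted p of 1 and an unadjusted p of 0.0588 in limma, the smallest among the 21. The 2 empty-vector arrays themselves differed by 1.05. Ifit2 read 562, 331 and 421, and Ifit3 read 53.6, 24.5 and 42.9, so RetSat shRNA lay between the control arrays for both. Usp18, the protease that removes ISG15 and damps receptor signalling, was below the filter at 41.9, 24.3 and 27.9. The IFIT genes, which sit side by side on chromosome 19, thus showed no common direction on RetSat shRNA. Empty vector 1 was the highest array for all 3, compared with 34.2% of all tested genes.

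OAS proteins make 2',5'-oligoadenylates on binding double-stranded RNA, and these activate RNase L. Oas1a read 18.8 and 12.7 on the empty-vector arrays and 10.3 on RetSat shRNA. Oas2 read 10.8, 8.4 and 5.0, the lowest on RetSat shRNA as for Oas1a, and both were far below the filter. Oasl2, an OAS-like protein, read 28.8, 20.5 and 28.7. Oasl1, an OAS-like protein that blocks translation of Irf7 mRNA, went the other way at 30.9, 19.2 and 62.2. It was the tested member with the largest positive difference from empty vector 2 (1.30) and from the mean of the empty-vector arrays (1.06, SE 0.52, 95% interval -0.08 to 2.20; limma's unadjusted p 0.0660, adjusted p 1). Oasl1 passed the filter only through its signal on RetSat shRNA, since on the empty-vector arrays alone it would have been left out.

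Of the other antiviral effectors, Bst2 and Ifi35 were above both control arrays. Bst2 (tetherin), which holds budding viruses at the cell surface, read 71.1 and 101 on the empty-vector arrays and 129 on RetSat shRNA, with log2 differences of 0.78 and 0.33. Ifi35, a partner of NMI, read 1273, 1436 and 1783, with differences of 0.48 and 0.31, and its other probe sets were also above both arrays (179, 248 and 277 on one, 176, 161 and 195 on the other). Trim25, the ubiquitin ligase that modifies RIG-I, was above both by a small margin on its brightest probe set, at 1046, 1221 and 1286. Its next read 732, 853 and 795, between the control arrays, and the last one 64.3, 93.9 and 95.9, above both. In limma's moderated test none of these 3 differences passed (adjusted p of 1 each).

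The RNA editing enzyme Adar read 246, 380 and 322 on its brightest probe set. Its others disagreed, at 101, 166 and 80.0 on one and 162, 37.0 and 49.5 on the other. Xaf1, a pro-apoptotic protein, read 112, 68.3 and 78.1, and Rtp4, a receptor transporter protein, read 118, 69.3 and 89.4. For both, on these brightest probe sets, RetSat shRNA lay between the control arrays and empty vector 1 was the highest. The other probe set of Xaf1 read 74.7, 51.2 and 39.1. That of Rtp4, below the filter, read 13.7, 34.5 and 10.8. Both were lowest on RetSat shRNA. Mx1 and Mx2 are the Mx antiviral GTPases. Mx1 read 6.3 and 5.8 on the empty-vector arrays and 25 on RetSat shRNA, which is below the filter on each array. It was the 1 of the 33 measured genes that cleared 2-fold against each control (log2 differences 1.09 and 1.14), where 2.12% of all genes with a probe set were at least 2-fold higher and 2.28% lower. Mx2 was at 4.0, 3.9 and 3.2. Rsad2 (viperin) was dim at 18.7, 13.0 and 30.8 on its brightest probe set and at 30.1, 10.5 and 5.7 on another, so RetSat shRNA was the highest array on one and the lowest on the other.

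The last group holds GTPases induced mainly by interferon gamma and the peptide transporter of the class I pathway. Gbp2, a guanylate-binding protein that attacks pathogen vacuoles, read 482 on empty vector 1 and 167 on both other arrays. Its second probe set gave 311, 107 and 123, the same order of the empty-vector arrays. Gbp3 followed at 31.2, 12.9 and 10.1, below the filter. Igtp, an immunity-related GTPase, read 155, 111 and 101, and Iigp1, of the same family, was dim and level at 26.5, 23.2 and 23.2. Tap1, the transporter that feeds peptides to class I molecules, read 51.3, 54.6 and 65.3 on its brightest probe set. There RetSat shRNA was slightly above both arrays, with log2 differences of 0.30 and 0.22. Its other probe sets, all below the filter, disagreed, and the next read 34.7, 21.7 and 14.6, lowest on RetSat shRNA. On the brightest probe sets 4 of these 5 genes were highest on empty vector 1, where 32.6% of all genes with a probe set were. Of the 4, Gbp3 and Iigp1 were below the filter. The other probe set of Iigp1 read 13.2, 23.5 and 12.7, highest on empty vector 2. None of the 5 passed the rule of size on RetSat shRNA.

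**Figure D2:**
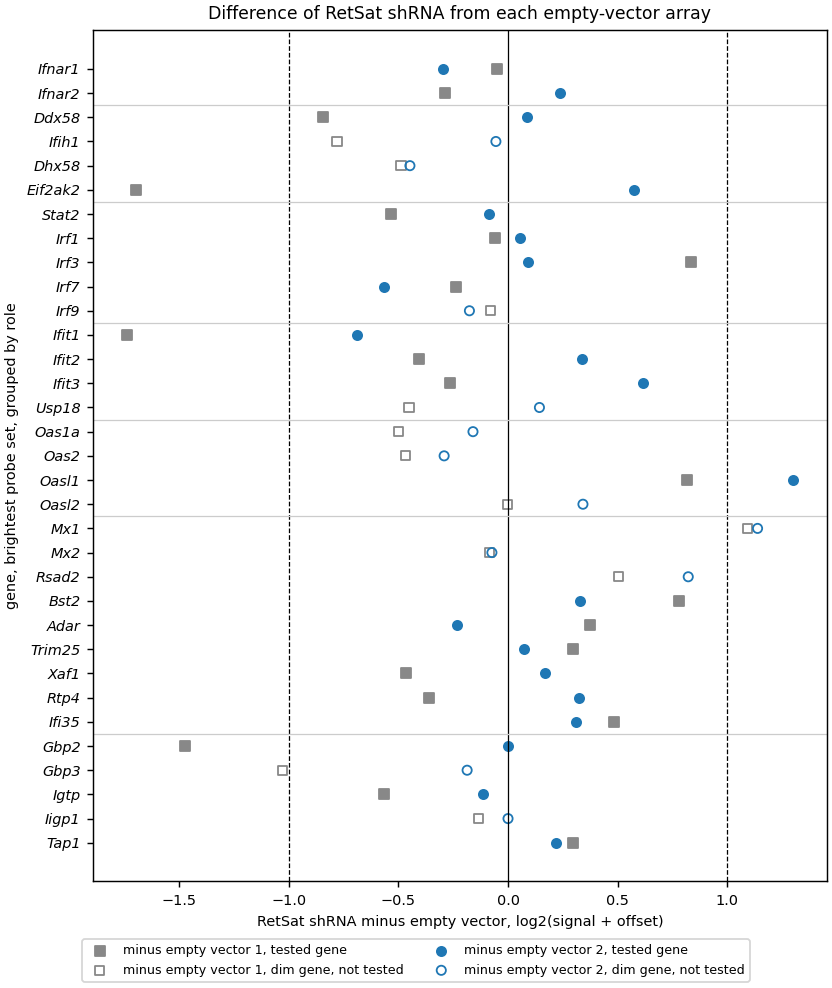
Log2(signal + offset) difference of RetSat shRNA from empty vector 1 (squares) and from empty vector 2 (circles) for each of the 33 genes, with open symbols for genes below the filter and dashed lines at a 2-fold difference. Only Mx1, a dim gene, has both symbols past a dashed line, while Eif2ak2, Ifit1, Gbp2 and the dim Gbp3 have a square past the left line with the circle inside both lines, and Oasl1 has its circle past the right line.

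Empty vector 1 was the highest array for 12 of the 21 tested genes (57.1%), compared with 34.2% of all tested genes, and for 21 of the 33 measured (63.6%, compared with 32.6% of all genes with a probe set). It was the lowest array for 6 of the 21 (28.6%), compared with 52.6% of all tested genes. At least 2-fold higher than on both other arrays were 3 of the 21 (14.3%, compared with 7.92% of all tested genes), namely Eif2ak2, Ifit1 and Gbp2, and 0 were at least 2-fold lower (1.86% of all). The median log2 difference of empty vector 2 from empty vector 1 was -0.45 over the 21 genes and 0.14 over all tested genes. It was 0.07 over 79 other tested genes of the interferon pathway and 0.05 over the 33 other interferon-stimulated genes among them. Ifit3 passed the filter only through its signal on empty vector 1, and with dim genes included the median was -0.34 over the 33 measured genes and 0.11 over all genes with a probe set. With 1 array on the high side there is no test of this. Against empty vector 2, the closer control, 16 of the 21 genes lay within 0.5 log2 of RetSat shRNA (76.2%), compared with 89.8% of all tested genes.

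**Figure D3:**
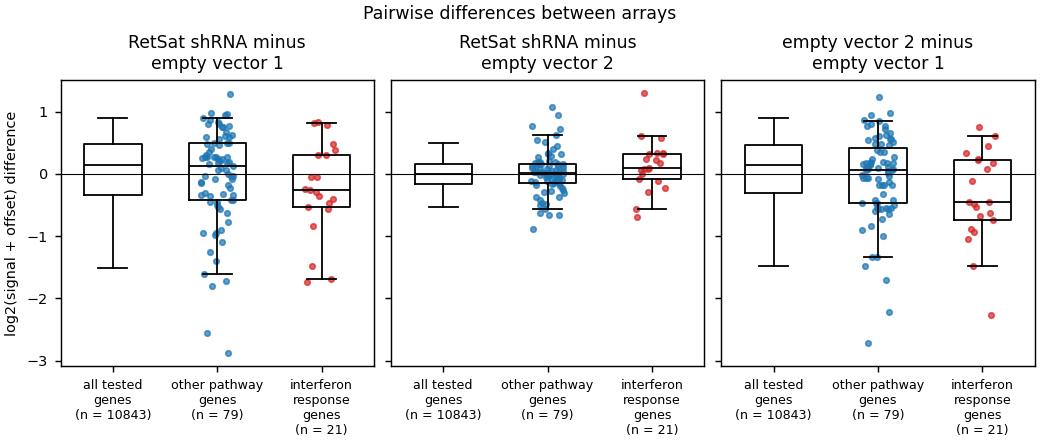
Log2(signal + offset) differences between pairs of arrays for all 10843 tested genes, 79 other genes of the interferon pathway and the 21 tested interferon response genes. Boxes span the quartiles with the median as a line, whiskers reach the 5th and 95th percentiles, and points are single genes. The box of the 21 genes lies lowest in the panel of empty vector 2 minus empty vector 1, with a median of -0.45, and at 0.09 in that of RetSat shRNA minus empty vector 2.

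The members were also split by the ISRE core match in their promoter windows. Of the 12 measured members with a match, 10 were highest on empty vector 1, compared with 5 of the 14 measured members whose window held none. The share was 32.6% over all genes with a probe set. That share was not split by the match, so the contrast between the 2 groups of members has no background beside it. The median difference of empty vector 2 from empty vector 1 was -0.78 with a match and 0.09 without, and among tested members only, Ifit3 included, it was -0.90 (8 genes) and 0.12 (12 genes). Between RetSat shRNA and empty vector 2 the medians were -0.03 with a match and 0.13 without. In the 8 genes whose sites are printed above, Bst2 was the exception, being lowest on empty vector 1. This split was made after the values had been seen, it shares its arrays with every other comparison, and no test is given for it.

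**Figure D4:**
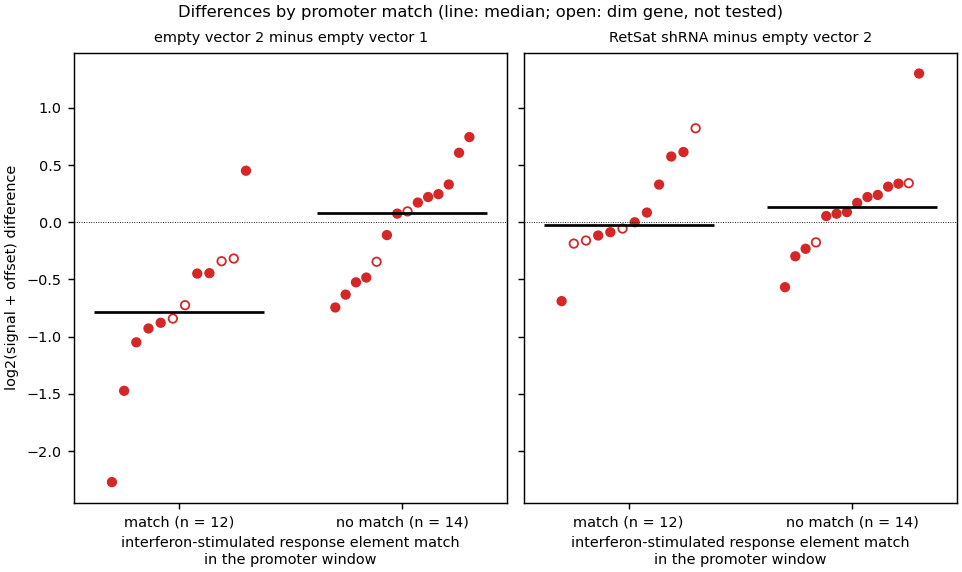
Log2(signal + offset) difference of empty vector 2 from empty vector 1 (left) and of RetSat shRNA from empty vector 2 (right) for 12 members with and 14 members without an ISRE core match in the promoter window, 1 point per gene, with the median as a line and open points for genes below the filter. On the left, 11 of the 12 genes with a match lie below 0, and on the right both medians lie near 0.

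Several members had more than 1 probe set, and these gave a measure of how far a value depends on the probes. Of the 16 genes with several, 13 had probe sets on both sides of 0 in the difference of RetSat shRNA from empty vector 2. Among them, Ddx58, Dhx58, Irf3, Rsad2, Rtp4 and Tap1 had at least 1 probe set below the filter. The same count was not made over all genes with several probe sets, so it is not read as a trait of these members. The spread between probe sets of a gene was widest for Dhx58 (2.20 log2) and Eif2ak2 (2.08), followed by Rtp4 (1.42), Adar (1.31) and Rsad2 (1.20). It was narrowest for Ifi35 (0.16), Trim25 (0.17) and Gbp2 (0.18). For Eif2ak2 and Adar, as for Ifi35, Trim25 and Gbp2, every probe set was above the filter. The probe sets of Gbp2 and Ifi35 gave the same order of RetSat shRNA against both control arrays, apart from a tie on the brighter Gbp2 probe set.

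**Figure D5:**
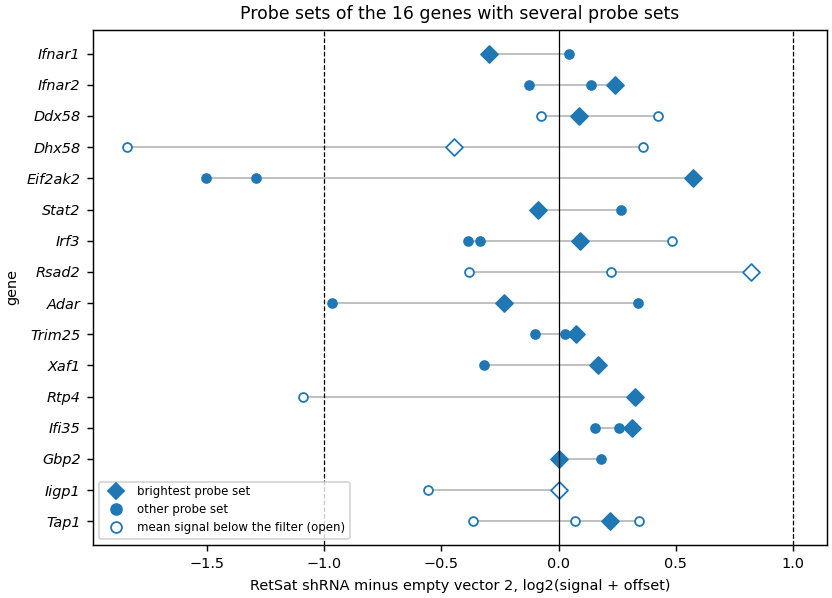
Log2(signal + offset) difference of RetSat shRNA from empty vector 2 for each probe set of the 16 genes with several probe sets, with the brightest as a diamond, probe sets below the filter open, and dashed lines at a 2-fold difference. The widest spread between filled points of 1 gene is that of Eif2ak2, from -1.50 to 0.57, and the points of Ifi35, Trim25 and Gbp2 lie close together.

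Other genes of the pathway were taken from lists of 156 symbols, of which 122 had a probe set of 1 symbol and 79 were tested. None passed limma's moderated test (0 of 79, with 1 at an unadjusted p under 0.05), and none passed the rule of size on RetSat shRNA. Above both arrays were 31 of the 79 and below both 25, against 34.4% and 25.4% of all tested genes. Their median difference from empty vector 2 was 0.02. At least 2-fold higher on empty vector 1 than on both others were 6 of 79, a share near that of all tested genes (7.92%). The 6 were Samd9l (326, 41.1 and 47.0), Ifi202b (2077, 629 and 623), Ifi204 (248, 91.9 and 63.4), Nmi (412, 157 and 150.4), the kinase Jak1 (3203, 1143 and 1041) and the peptide-trimming protease Erap1 (225, 40.5 and 21.8). They were named after their values were seen. Erap1, also the 1 gene counted above by unadjusted p, passed the filter only through its signal on empty vector 1. Its place in both counts therefore lends them no weight.

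The ligands themselves were near the floor. Of 9 interferon genes with a probe set of their own, 1 was tested. Ifnb1, interferon beta, read 38.7 and 23.1 on the empty-vector arrays and 41.1 on RetSat shRNA, about level with empty vector 1. On the empty-vector arrays alone Ifnb1 would have been left out by the filter. Its place among the other pathway genes above both arrays therefore lends that count no weight. Cxcl10, a chemokine induced by interferons, read 63.3, 94.6 and 103, with a log2 difference of 0.12 from empty vector 2. Class I heavy chain and its partner were bright, with H2-K1 at 2026, 2584 and 2812 and B2m at 10032, 9470 and 11818, both above the 2 control arrays by at most 0.47 log2.

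Among the sensing genes, the endosomal receptors Tlr9 and Tlr3 ranked highest by the smaller of 2 differences of 1 sign. Tlr3, which binds double-stranded RNA in endosomes, read 59.9, 45.8 and 108, and Tlr9, which binds CpG DNA, read 39.6, 40.3 and 86.6. The ubiquitin ligase Trim56 was lower than both arrays, at 347, 256 and 170. In the JAK-STAT list the feedback inhibitor Socs3 read 1139, 1688 and 2781, with log2 differences of 1.28 and 0.72, and the phosphatase Ptpn6 read 59.4, 56.0 and 86.5. Lower than both were the interferon gamma receptor chain Ifngr1 (303, 347 and 219.5) and the kinase Jak2 (327, 193 and 170). Irf2, a relative of Irf1, read 124, 217 and 248, and its corepressors Irf2bp1 and Irf2bp2 read 370, 569 and 655 and 1244, 2171 and 2280. Of further interferon-stimulated genes, Ifi27 read 671, 694 and 952. Parp12 (46.8, 44.2 and 19.3), the lysosomal thiol reductase Ifi30 (791, 570 and 405) and Tdrd7 (343, 189 and 139) were lower than both arrays. The class II transactivator Ciita read 40.6, 43.1 and 30.9. In limma's moderated test none of the genes in this paragraph passed (adjusted p of 1, with unadjusted p from 0.0832 upward).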

How the data were processed

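The data are 3 arrays of 45101 probe sets. The authors' deposited values are linear-scale intensities, 1 for each probe set. In these deposited intensities the 2% trimmed mean is 250 on each array, so they had been scaled before deposit. Software and summarisation were not given in the sources used here, and no detection calls were used. The number of arrays limits precision. The labels give no batch.

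Names came from the platform annotation. Of the probe sets, 34945 had 1 symbol (18193 genes), 932 had several and 64 were array controls. The brightest probe set by mean log2 signal stood for its gene. Before log2, 10.2 was added (the 25th percentile over the table). A gene entered the test if its mean log2 signal reached the median of all probe sets (10843 genes), in limma 3.58.1 (R 4.3.3; lmFit, eBayes, two-sided, Benjamini-Hochberg over all tested genes). The script was tested on simulated data. A rule of size took genes that differ 2-fold or more, one way, from both controls.

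Members and lists were chosen with earlier results of these data known. Every member is named. Other pathway genes named are up to 4 tested genes of each list with the largest minimum difference from the controls, where both differences have 1 sign, with any gene past the rule of size, Ifnb1, Cxcl10 and Retsat. Markers, and pathway genes named for being high on empty vector 1, were chosen after their values were seen. Alternatives were the offset, centring, quantile normalization, the filter, the probe set choice, the variance prior, and leaving out each empty-vector array.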

Additional observations from a re-analysis of the deposited data

How the results depend on the processing

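Limma hardly calls any gene in this design, so its count of members says nothing on stability. It was 0 under each alternative run (offsets of 1 and 50, centring, quantile normalization, no filter, a filter at the 75th percentile, the mean of all probe sets, a robust prior and a prior with a trend), where limma called 1 of all tested genes with centring, 7 with the robust prior and 0 under the others. At an unadjusted p under 0.05 some members were counted with an offset of 1, quantile normalization, the mean of all probe sets or a robust prior. None were under the others. The share of all tested genes at that level was not computed under these settings, so nothing is read from those counts. The count of members past the rule of size was 0 under every setting that changed the offset, scaling or probe set and under the stricter filter. Without a filter it was 1, the dim gene Mx1. Against a single array it was 1 without empty vector 1 (Oasl1, higher) and 3 without empty vector 2 (Eif2ak2, Ifit1 and Gbp2, all lower), which are values with no test. The median difference of the members ran from -0.26 without empty vector 2 to 0.09 without empty vector 1, and over the other alternatives from -0.16 (mean of all probe sets) to 0.07 (arrays centred). The sign held for 10 of the 21 tested members in every run that included the gene, and not for 11. Not every run included every member. The filter at the 75th percentile kept 9, and Tap1, among the 10, was left out with the mean of all probe sets. The same count was not made over all genes. No paired analysis was possible because the groups share only 1 replicate number. Members below the filter, 12 of 33, have signals too near the floor for a fold to be read.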
